A study of Mus musculus with 4 samples.

Results

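Open chromatin at most gene starts is a short stretch, but a small set of gene ends lies in open stretches of several kilobases. The broad open domains described here were found by merging the peaks of 4 ATAC-seq libraries wherever they overlapped by at least 1 bp. A merged region on chromosomes 1 to 19 was kept as a domain when it was at least 2500 bp long, held a peak in all 4 libraries and reached within 1 kb of the annotated start or end of a protein-coding gene (RefSeq, GRCm38.p6, the assembly of mm10). There were 71 such domains among 62815 merged regions, or among 10529 regions that had a peak in all 4 libraries at a gene end. The other 10458 of those regions were shorter than 2500 bp and are called the shorter regions. The rule used the presence of a peak in each library and the length over all 4, so neither is a finding, and covered bases and peak numbers within the domains are given as a description.

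ATAC-seq marks open DNA by the insertion of sequencing adapters by a transposase, and the authors deposited 1 list of broad peaks per library. All libraries came from female C57BL/6 embryos at embryonic day 15.5, from germ cells sorted on an Oct4-EGFP reporter that both groups carried. In the labels, 2 libraries have the genotype Control (Control 1 and Control 2) and 2 the genotype Snf5 CKO, a conditional knockout (Snf5 CKO 1 and Snf5 CKO 2). The labels name neither the driver of the knockout, nor the alleles of the controls, nor whether each replicate is another animal, so replicate spread may be technical. With 2 libraries against 2, the smallest two-sided exact permutation p is 0.33, so no difference below could pass a test at 0.05.

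Snf5 is the protein of Smarcb1, a core subunit of SWI/SNF, the ATP-driven complex that slides and evicts nucleosomes and so exposes DNA at enhancers and promoters. Most broad open promoters of mammals lie in CpG islands, which are rich in G and C, mostly free of DNA methylation and bound by proteins that recognise unmethylated CpG. Female germ cells at this age are in meiotic prophase, which they entered through Stra8 and its partner Meiosin.

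The lists held 28625 to 45422 peaks and covered 27.4 and 25.2 Mb in the controls and 24.3 and 16.9 Mb in the Snf5 CKO libraries. Snf5 CKO 2 had the shortest list and Snf5 CKO 1 the longest. The depth of each library is unknown, and less openness per cell and fewer open cells cannot be told apart in such lists. Of 5 germ cell markers, all (Dazl, Ddx4, Pou5f1, Dppa3, Sycp3) had a peak within 1 kb of a gene end in every library, with summed peak cover of 5662 to 5817 bp in the controls and 3790 to 4914 bp in the knockouts. Markers of ovarian supporting cells had a peak for 3 of 5 genes in every library, and their sum was 4803 to 5728 bp in the controls and 3197 to 3240 bp in the knockouts, with Amhr2 and Gata4 at 0 bp. Stroma markers summed to 1799 to 2565 bp and 430 to 967 bp, with Pdgfra at 0 bp, and endothelium and blood markers to 2696 to 2946 bp and 1654 to 1840 bp, with Cdh5, Gata1 and Ptprc at 0 bp. The part of other cells in the results below was not tested. Smarcb1 had no region with a peak in all 4 libraries, and peak positions do not check the deletion.

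The promoters of the domains were rich in CpG. RefSeq promoter sequences (GRCm38.p6, 250 bases before to 50 after each start) were found for 69 of the 83 genes at domains, and 75 promoters of 62 genes had their start inside a domain. Printed here are those with the most and the fewest CpG dinucleotides, Traf3 and Tpbg, that of Arid1b, whose domain had 2817 and 2337 of its 3138 bp covered in the knockouts, and those of Adrb1 and Sox2, whose domains were mostly uncovered in the Snf5 CKO libraries. Each is written 5′ to 3′ on the strand of its gene, and the capitals mark CpG dinucleotides.
Traf3, chr12:111166120-111166419, plus strand: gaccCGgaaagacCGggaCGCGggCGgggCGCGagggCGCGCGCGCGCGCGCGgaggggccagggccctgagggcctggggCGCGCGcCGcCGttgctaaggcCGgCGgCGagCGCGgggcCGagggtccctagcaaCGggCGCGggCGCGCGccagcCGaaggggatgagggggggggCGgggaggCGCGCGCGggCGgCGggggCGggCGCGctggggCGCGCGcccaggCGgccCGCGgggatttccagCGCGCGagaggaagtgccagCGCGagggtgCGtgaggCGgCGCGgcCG
Tpbg, chr9:85842130-85842429, plus strand: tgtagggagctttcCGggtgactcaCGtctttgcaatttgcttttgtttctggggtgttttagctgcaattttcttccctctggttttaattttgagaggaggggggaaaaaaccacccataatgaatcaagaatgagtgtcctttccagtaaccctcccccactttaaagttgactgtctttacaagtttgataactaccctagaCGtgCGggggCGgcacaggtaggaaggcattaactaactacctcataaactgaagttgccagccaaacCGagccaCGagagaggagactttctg
Arid1b, chr17:4994824-4995123, plus strand: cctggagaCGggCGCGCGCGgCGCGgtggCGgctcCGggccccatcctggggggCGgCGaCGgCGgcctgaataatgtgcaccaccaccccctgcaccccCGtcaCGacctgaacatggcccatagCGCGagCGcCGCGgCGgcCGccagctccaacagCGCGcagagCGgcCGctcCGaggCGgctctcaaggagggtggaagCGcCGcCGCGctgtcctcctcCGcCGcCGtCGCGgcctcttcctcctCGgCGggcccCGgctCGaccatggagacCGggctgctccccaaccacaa
Adrb1, chr19:56721867-56722166, plus strand: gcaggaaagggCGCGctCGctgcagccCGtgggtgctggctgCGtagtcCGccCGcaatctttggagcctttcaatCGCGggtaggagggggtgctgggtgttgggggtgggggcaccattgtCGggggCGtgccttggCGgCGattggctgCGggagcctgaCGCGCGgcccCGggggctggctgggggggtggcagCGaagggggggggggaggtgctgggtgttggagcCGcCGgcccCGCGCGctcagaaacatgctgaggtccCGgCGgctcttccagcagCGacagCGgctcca
Sox2, chr3:34649745-34650044, plus strand: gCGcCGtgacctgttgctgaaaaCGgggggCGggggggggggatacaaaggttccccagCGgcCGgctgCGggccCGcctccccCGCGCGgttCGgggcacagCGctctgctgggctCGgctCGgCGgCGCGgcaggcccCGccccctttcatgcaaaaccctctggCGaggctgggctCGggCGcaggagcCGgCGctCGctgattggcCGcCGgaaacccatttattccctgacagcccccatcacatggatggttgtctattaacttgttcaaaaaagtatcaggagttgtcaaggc
The Traf3 promoter, of a signalling adaptor of TNF receptors, held 59 CpG in its 300 bases at 84.0% G+C. The Tpbg promoter, of a membrane glycoprotein that dampens Wnt signalling, held 7 at 46.0%. Tpbg had another start inside the same domain, whose promoter held 17 CpG at 65.7% G+C. The promoters of Arid1b, Adrb1 and Sox2 held 42, 28 and 27 CpG, so a CpG-rich start was present both where most cover remained and where most of it was gone.

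Over the 75 promoters in domains, the median G+C content was 70.3% and the median ratio of observed to expected CpG was 0.903. The 9690 promoters in shorter regions had medians of 63.0% and 0.810, and the 10319 promoters whose start lay in no region with a peak in all 4 libraries had 50.0% and 0.247. Both medians were higher in longer regions up to 2000 bp and changed less beyond, and promoters in regions of at least 2000 and under 2500 bp had medians of 69.3% and 0.870, close to those of the domains. Base composition was not used to choose the domains. CpG island extents were not analysed here.

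**Figure D1:**
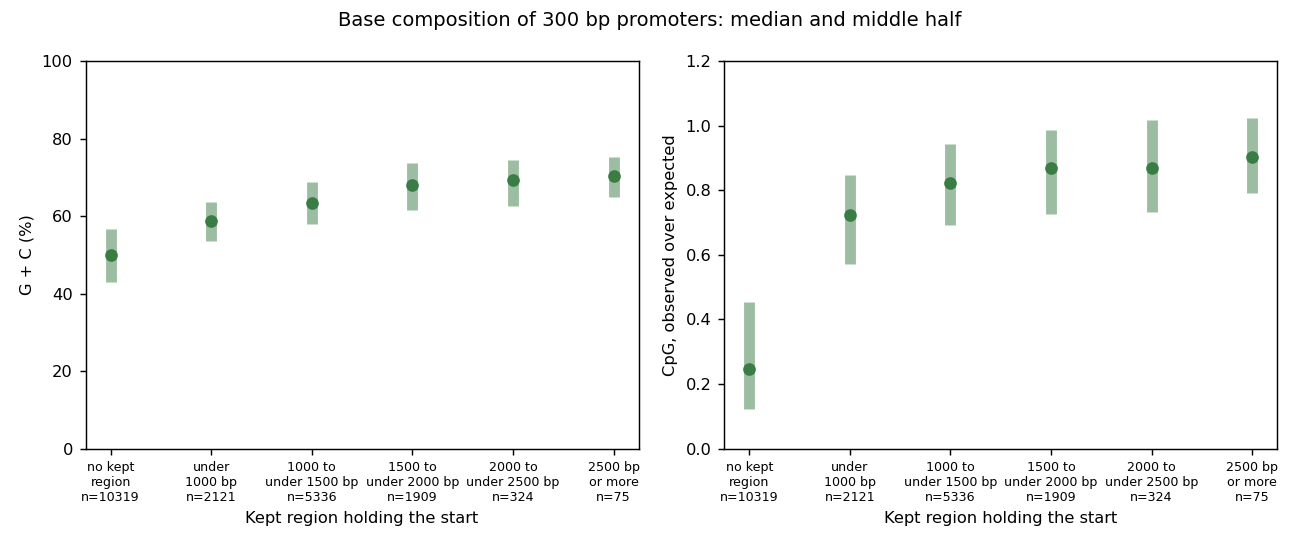
Base composition of 300 bp RefSeq promoters by the length of the kept region (a peak in all 4 libraries) that holds the start. The left axis gives G+C in percent and the right axis the ratio of observed to expected CpG, points are medians and bars run from the lower to the upper quartile. The median G+C goes from 50.0% with no kept region to 70.3% in regions of 2500 bp or more, the domains.

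Short sequence motifs were searched on both strands of the same promoters. GGGCGG, the GC box of Sp1 and Krueppel-like factors, was present in 88.0% of promoters in domains, 71.5% of those in shorter regions and 47.0% of all 20084 promoters. CCAAT, the box of NF-Y, went the other way, with 24.0% in domains, 39.4% in shorter regions and 38.1% of all. CCGGAAG, the core of ETS factor sites, was found in 3 of 75 promoters in domains (4.0%), against 20.6% in shorter regions and 11.9% of all. Its share fell stepwise with region length, from 23.9% under 1000 bp through 22.3%, 14.0% and 10.5% to 4.0%. TATAAA was present in 4.0%, 5.57% and 12.7% of the same 3 classes, and the E-box CACGTG in 9.33%, 11% and 7.89%. The NRF1 motif stood at 8.0%, 11.9% and 6.55%. CNCCTCAG, searched as a STRA8 and MEIOSIN motif, stood at 8.0%, 9.47% and 8.57%. GGGCGG and CCGGAAG each hold a CpG, so these shares depend on base composition too. A match is only a run of letters in this window.

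The 71 domains had a median merged length of 2662 bp, from 2500 bp at Sp3 to 3571 bp at Cdk6, and made up 193 kb in all. They touched 83 genes, 59 domains touching 1 gene and 12 touching 2. At 59 domains the contact was at a gene start; at the other 12 the strand was not in the promoter table, and no domain was found at a 3′ end alone. An annotated start lay inside 56 domains, 6 of them with starts on both strands. Chromosome 10 had no domain and each of the other autosomes had 1 to 9. The only neighbours closer than 100 kb were those of Zic5 and Zic2, 8377 bp apart, divergent zinc finger genes of neural patterning.

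Both short and very long genes were frequent. Of the 83 genes, 24 (28.9%) were under 5 kb long and 21 (25.3%) over 100 kb, against 12.6% and 13.6% of the other 11636 genes at kept regions. The median lengths were closer, at 25.6 and 23.5 kb. Adrb1, Egr4, Fzd7, Jun, Slc18a3 and Sox2 are short genes of 2414 to 4809 bp, so that a domain takes in much of the gene, while Usp29 (236662 bp) and Arid1b (353360 bp) are long genes of which it covers only the start.

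The longest domain lay at Cdk6, a cyclin-dependent kinase of G1 (chr5:3341132-3344702). Peaks covered 3048 and 3370 bases of it in Control 1 and 2, and 2262 and 1322 in Snf5 CKO 1 and 2. Both knockouts were below both controls, and the knockouts also differed from each other. The domain at Arid1b, a DNA-binding SWI/SNF subunit (chr17:4993682-4996819, 3138 bp), had 2955 and 3129 bases covered in the controls and 2817 and 2337 in the knockouts. Its log2 ratio of mean covered bases, knockout over control, was -0.24. The other long domains were at the predicted genes Gm20783 and LOC108167694 (3314 bp), at the imprinted pair Peg3 and Usp29 (3289 bp), and at Zswim6 (3129 bp), Tril (3034 bp), Gm42517 (3032 bp), Ctbp2 with Gm35364 (3025 bp), Jun (3021 bp) and Klf10 (2952 bp). Jun is a subunit of AP-1, Ctbp2 a corepressor and Klf10 a Krueppel-like repressor.

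Domains were almost filled by peaks in the controls and much less so in the knockouts. The median covered bases per domain were 2513 and 2481 in the controls and 1627 and 1652 in the knockouts, or 94.2%, 92.5%, 60.9% and 59.9% of the merged length. As group means of the library medians these were 2497 ± 22.6 bp in the controls and 1639.5 ± 17.7 bp in the knockouts (SD, n = 2 libraries each). The gap between groups was far wider than the gap between replicates. Over whole lists the median peak was also narrower in the knockouts, at 427 and 515 bp against 578 and 560 bp in the controls. The part of peak width over whole lists, or of depth, in the values of the domains was not tested. Both Snf5 CKO libraries covered fewer bases than both controls at 65 of 71 domains (91.5%), where the background over all 10529 kept regions at gene ends was 77.4%. The shorter regions stood at 77.3%, and regions kept away from gene ends at 39.1%. Without Control 1, 41 regions met the rule for a domain, and 39 of them (95.1%) had fewer bases in both knockouts than in Control 2. In that setting the shorter regions stood at 83.7%. Less cover in both knockouts was thus the common direction at gene ends of every length.

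The median log2 ratio was -0.57 in the domains (quartiles -0.84 and -0.34) and -0.40 in the shorter regions. By length class at gene ends it went from -0.34 under 1000 bp through -0.41, -0.43 and -0.49 to -0.57 in the domains. Away from gene ends there was no such order, with -0.06, -0.28, -0.29, -0.24 and -0.17 in the same 5 classes. The last of these held only 18 regions, and mapping artefacts were not filtered out. A log2 ratio of -1 or lower was seen at 10 domains (14.1%) and at 7.58% of shorter regions. The merged length includes the control peaks, so the choice of domains and this ratio are not independent. Regions chosen in addition on the cover of 1 library alone, at 2000 bp or more, were therefore read in the libraries that had not chosen them. Of 244 regions at gene ends chosen on Control 1, 232 (95.1%) had fewer bases in both Snf5 CKO libraries than in Control 2, with a median log2 ratio of -0.50, where all 10529 kept regions at gene ends gave 84.5% and -0.39. Of 39 chosen on Snf5 CKO 1, 33 (84.6%) had fewer bases in Snf5 CKO 2, the library with the shortest list, than in both controls, with a median of -0.25, where all 10529 gave 89.1% and -0.44. Broad regions thus had the lower ratio when a control library chose them and not when a knockout library did, so the difference between domains and shorter regions depends on the choice of regions.

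**Figure D2:**
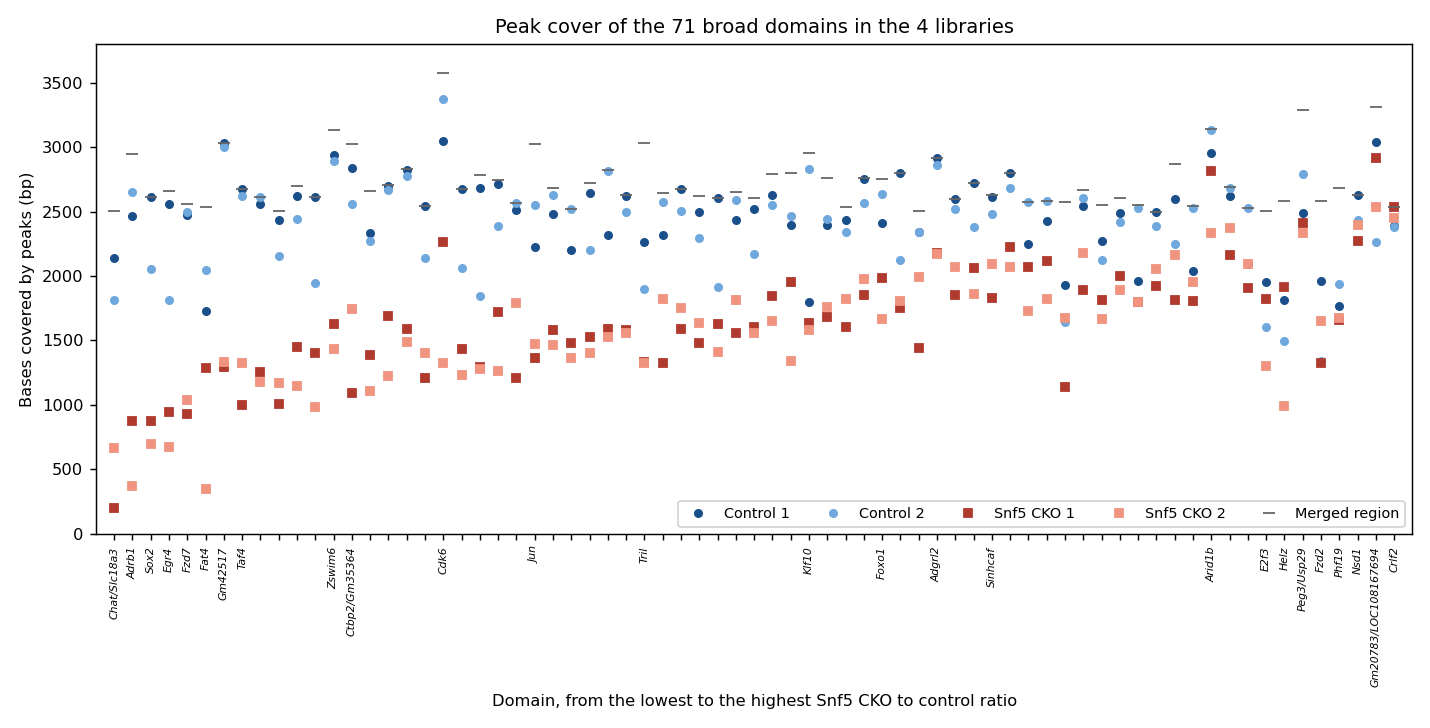
Bases covered by peaks (y axis, bp) in each of the 71 domains (x axis, ordered by the log2 ratio of knockout over control; genes are written at the longest domains, the lowest and highest ratios and the largest gains of peaks). Blue circles are the 2 controls, red squares the 2 Snf5 CKO libraries and grey dashes the merged length. In 65 of the 71 domains both squares lie below both circles, and at Crlf2, on the right, both lie above.

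**Figure D3:**
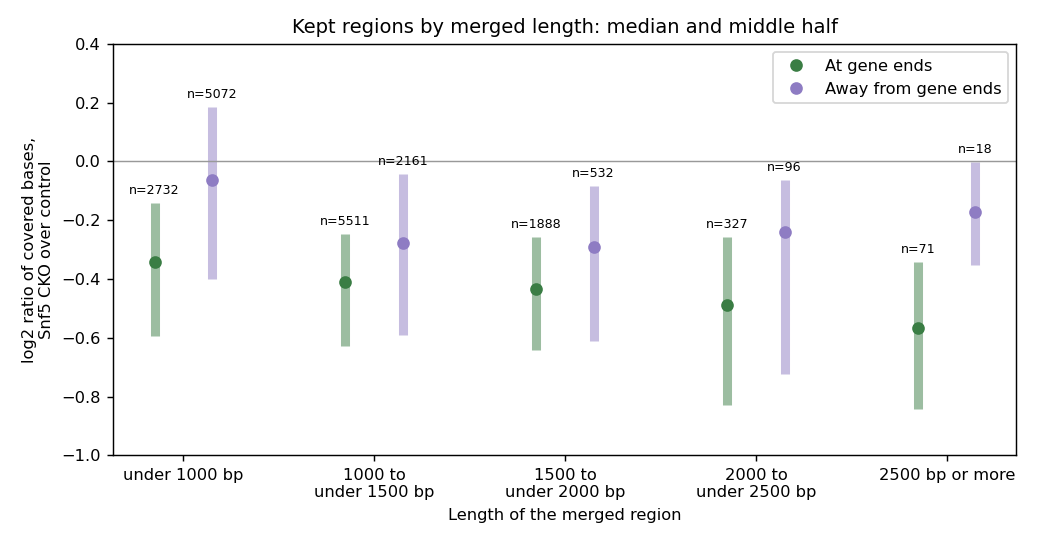
Log2 ratio of mean covered bases, Snf5 CKO over control (y axis), of regions with a peak in all 4 libraries, by merged length (x axis), at gene ends (green) and away from them (purple). Points are medians, bars run from the lower to the upper quartile and n is the number of regions. At gene ends the median goes from -0.34 in the shortest class to -0.57 in the domains.

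The lowest ratios of cover were found at the following genes. At Chat and Slc18a3, which encode choline acetyltransferase and the vesicular acetylcholine transporter and share a locus (chr14:32462933-32465433), the covered bases were 2141 and 1817 in the controls and 200 and 664 in the knockouts. At Adrb1, the beta-1 adrenergic receptor (chr19:56721357-56724303), they were 2468, 2651, 872 and 374. At Sox2, a pluripotency and neural transcription factor (chr3:34648774-34651387), they were 2614, 2056, 876 and 700. The groups did not overlap at any of these 3 domains. Both knockouts lay below both controls at 91.5% of all domains and 77.4% of kept regions at gene ends. The 3 domains were taken for their low log2 ratios, which were -2.20, -2.04 and -1.57. The next 5 were Egr4, an early growth response factor (-1.43), Fzd7, a Wnt receptor (-1.34), Fat4, an atypical cadherin (-1.2), the predicted gene Gm42517 (-1.2) and Taf4, a subunit of the general factor TFIID (-1.19). At Gm42517 the controls had 3032 and 3004 bases in 1 peak each and the knockouts 1295 and 1334, again in 1 peak each. That narrowing was thus nearly equal within each group.

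At the other end of the order, the group means were close, although single libraries could differ widely. More bases in both Snf5 CKO libraries than in both controls were seen at 1 domain, against a background of 1.39% of kept regions at gene ends. It lay at Crlf2, a subunit of the TSLP receptor (chr5:109556620-109559158), with 2391 and 2383 bases in the controls and 2539 and 2447 in the knockouts, a log2 ratio of 0.06. Each library had 1 peak there, at a fold enrichment over local background of 2.30 to 2.53. Mapping artefacts were not filtered out, so such nearly equal widths need not reflect open chromatin. The groups overlapped at 5 domains, those of Gm20783 and LOC108167694, Fzd2, Helz, E2f3, and Eno3 with Pfn1. Gm20783 had 3036, 2263, 2915 and 2539 bases (log2 ratio 0.04). At Nsd1, an H3K36 methyltransferase, the values were 2630 and 2434 against 2273 and 2399 (-0.12), and at Phf19, a Polycomb-like partner of PRC2, 1766 and 1936 against 1661 and 1677 (-0.15). Both were below the controls in both knockouts, by a small margin. Peg3 with Usp29 stood at -0.16, the Wnt receptor gene Fzd2 at -0.15, the helicase gene Helz at -0.19 and E2f3, a cell cycle transcription factor, at -0.19.

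Peaks were also more often broken up in the knockouts. The domains held 91 and 94 peaks in the controls and 116 in each Snf5 CKO library, a mean per domain of 1.30 ± 0.030 against 1.63 ± 0.0 (SD, n = 2 libraries each). A domain was 1 unbroken peak in 55 and 52 cases in the controls and in 33 and 34 in the knockouts. More peaks in both Snf5 CKO libraries than in both controls were counted at 11 domains (15.5%), against a background of 0.969% of kept regions at gene ends and 0.87% of the shorter regions. Fewer in both were counted at 0 domains (background 0.142%). With 1 library left out, more peaks were counted at 12 of 41 domains without Control 1 and 19 of 48 without Control 2. The counts were 17 of 62 without Snf5 CKO 1 and 20 of 69 without Snf5 CKO 2. The shorter regions gave 1.03%, 0.991%, 2.82% and 2.45% in the same order. With 1 library left in a group, fewer libraries need to agree, so these counts are higher by construction. By length class the share with more peaks was 0.0732%, 0.363%, 2.33%, 7.65% and 15.5%, so breaking up was increasingly frequent with length over the whole range and had no step at 2500 bp. In shorter regions there is also less room for a second peak. Of 18 kept regions of 2500 bp or more away from gene ends, 2 (11.1%) had more peaks in both knockouts. Their mean peak numbers were 1.56 in the controls and 1.53 in the knockouts. A wide unbroken peak can by itself make a region a domain, so peak number and the choice of domains are not independent. Peak number was not read in held-out libraries.

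The 11 domains lay at Adgrl2, Foxl2, Foxo1, Fzd8, Klf13, Mesd with Tlnrd1, Peg3 with Usp29, Ptma, Rcor3, Sinhcaf and Taf4. At Adgrl2, a latrophilin adhesion receptor, 1 peak in each control stood against 3 in each knockout, while 2912, 2862, 2182 and 2173 bases were covered. At Foxo1, a forkhead factor of insulin signalling, the numbers were 1, 1, 2 and 3, and at Sinhcaf, a subunit of SIN3 histone deacetylase complexes, 1, 1, 3 and 2. At Peg3 and Usp29 they were 2, 1, 3 and 3, and 2489, 2791, 2408 and 2334 bases were covered. At Cdk6 they were 3, 1, 3 and 3, so the groups overlapped. The largest falls in mean peak number, at Zswim6 (1, 2, 1, 1), Ctbp2 (1, 3, 1, 2) and Adrb1 (2, 1, 1, 1), were each between overlapping groups. Cover and peak number are linked, as a gap between peaks is also uncovered. Of 41 domains in 1 peak in both controls, 10 were split in both knockouts and 23 in at least 1. Another 18 domains, Nsd1, Crlf2 and Fzd7 among them, were 1 peak in all 4 libraries.

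**Figure D4:**
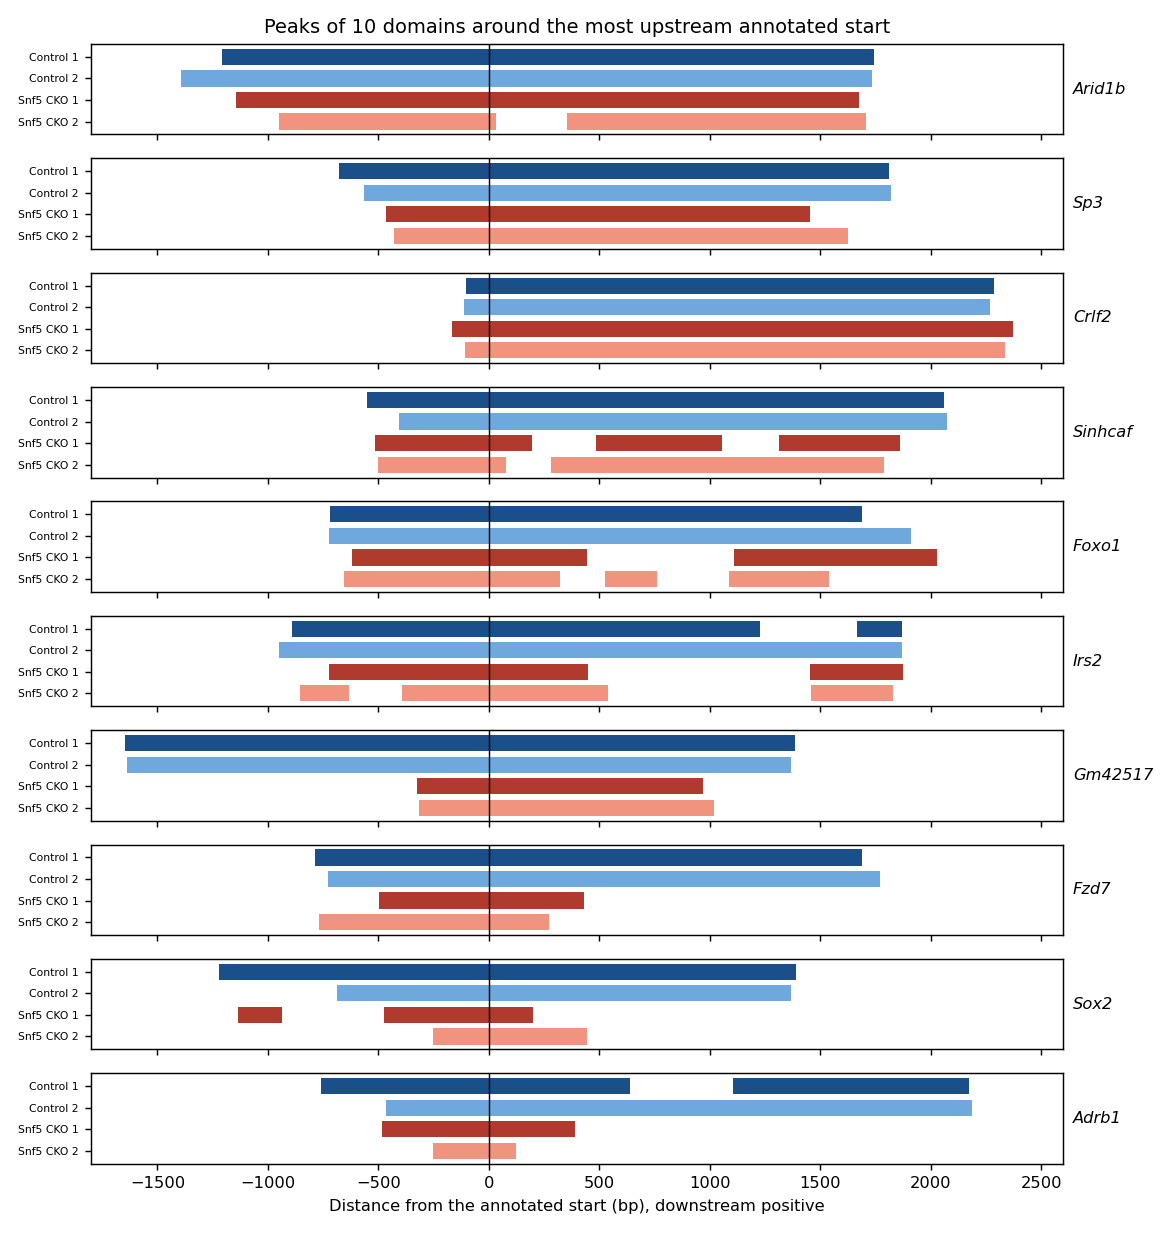
Peaks of each library at 10 domains, drawn to scale, with 1 row per library. The x axis gives the distance (bp, downstream positive) from the most upstream start of the promoter table inside the domain. The domains were picked, after their values were seen, to show much of the width covered in all libraries (Arid1b, Sp3, Crlf2), breaks (Sinhcaf, Foxo1 and Irs2, the last also broken in Control 1) and narrowing (Gm42517, Fzd7, Sox2, Adrb1). At Sinhcaf 1 control peak stands against 3 and 2 knockout peaks, and at Adrb1 the knockout cover is 872 and 374 bp near the start.

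Single peaks of 2500 bp or more were a feature of the control lists. Over whole lists there were 46 and 39 such peaks in the controls and 9 and 6 in the knockouts, and in the domains 35 and 31 against 2 and 0. A single peak of this width in any library makes a kept region at a gene end a domain. Peak widths in the domains are therefore not independent of the rule. The median width of the widest peak in a domain was 2493 and 2434 bp against 1252 and 1266 bp. The widest in any domain was 3370 bp in Control 2, at Cdk6, where it was the only peak, and 2817 bp in Snf5 CKO 1, at Arid1b. Counted only over bases covered in both groups, 2 domains still reached 2500 bp, those of Arid1b and of Gm20783 with LOC108167694.

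Of the merged bases, 46.5% were covered in all 4 libraries, 20.3% in both controls and neither knockout, 1.2% in both knockouts and neither control, and 32.0% in other combinations. The bases open in both controls alone had a median of 536 bp per domain. Bases open in both knockouts alone were present in 15 domains. Of the bases open in both controls alone, 63.6% lay outside the outermost knockout peaks, where the domain had narrowed, and the rest inside, between knockout peaks. In the shorter regions 95.5% lay outside. Inner gaps of this kind were seen in 36 of 71 domains and in 313 of 10458 shorter regions.

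The narrowing was mostly on the downstream side of the start. The start used here is the most upstream one of the promoter table inside the region. Some RefSeq genes begin further upstream, so bases upstream of this start can lie inside the gene. At Cdk6 the gene begins at 3341004 and the start used is 3343893. At Hnrnpl these are 28808546 and 28810890. For the 50 domains with starts on 1 strand, the median distance from the start to the upstream edge was 1003 and 854 bp in the controls and 859 and 822 bp in the knockouts. The median distance to the downstream edge, inside the gene, was 1631 and 1499 bp against 961 and 965 bp. Upstream, Control 2 lay between the knockouts, while downstream both knockouts lay far below both controls. Bases outside the knockout peaks and open in both controls amounted to 4.2 kb upstream and 15 kb downstream, with more downstream at 31 domains and more upstream at 12. The shorter regions had the same order, with 361 kb upstream and 746 kb downstream over 7067 regions. The start itself was covered in 47, 48, 46 and 44 of the 50 domains. At 500 bp downstream of the start 96.0%, 86.0%, 38.0% and 46.0% of domains were covered, and at 500 bp upstream 84.0%, 82.0%, 66.0% and 60.0%.

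**Figure D5:**
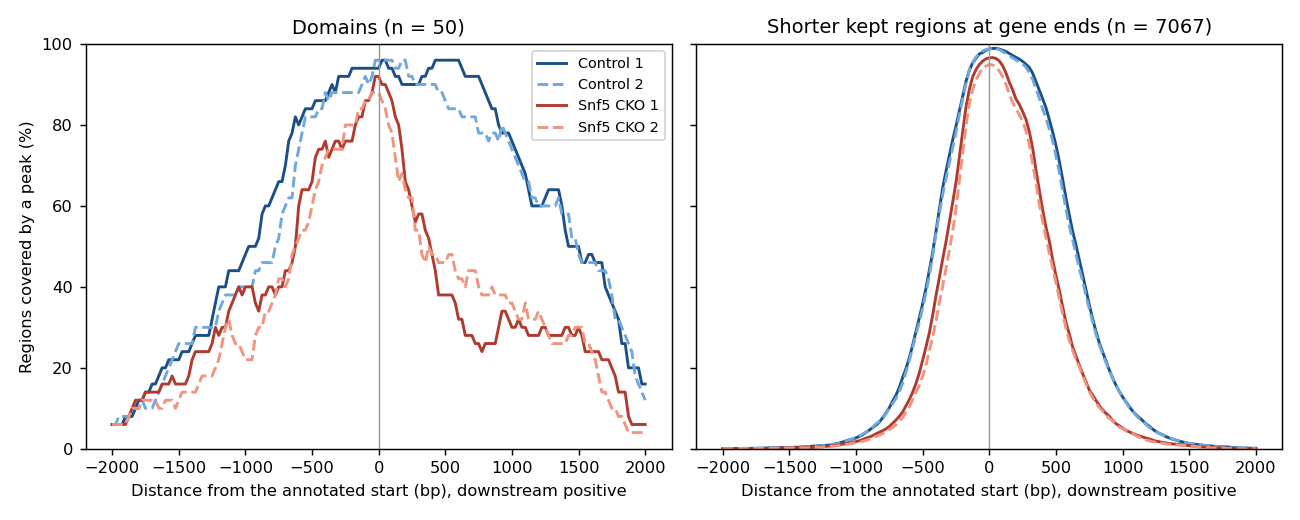
Share of regions covered by a peak (y axis, percent), for the 50 domains and 7067 shorter regions with starts on 1 strand. The x axis gives the distance (bp, downstream positive) from the most upstream start of the promoter table inside the region, which need not be where the gene begins. Each line is 1 library, controls in blue and Snf5 CKO in red. At the start of the domains the 4 lines lie between 88.0% and 96.0%, and at 500 bp downstream the controls stand at 96.0% and 86.0% and the knockouts at 38.0% and 46.0%.

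Broad did not mean tall. Fold enrichment, the authors' value per peak over local background, had a median over the widest peaks of the domains of 3.05 and 3.04 in the controls and 3.80 and 3.75 in the knockouts. Within their own lists these values ranked at the median percentiles 16.2, 13.2, 37.2 and 24.4, where the widest peaks of shorter regions ranked at 77.0, 75.3, 78.8 and 70.0. By -log10 q, which also rises with width, the domains ranked at 70.7, 65.6, 77.2 and 65.9. The 5 domains with the highest fold enrichment in their weakest library were those of Helz, Fzd2, Rap2b, Sp3 and Pbx3. Fold enrichment is 1 value for a whole peak, and how far it follows from width was not tested.

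Broad domains were rare in every gene group looked at, so shares are given as counts beside 83 of 11719 genes (0.708%) for all genes with a kept region. Chromatin genes held several: 3 of 29 histone methyltransferases and demethylases (Kmt2c, Kmt2e and Nsd1), 1 of 26 SWI/SNF subunits (Arid1b) and 1 of 33 Polycomb genes (Phf19). Kmt2c, which writes H3K4 methylation at enhancers, had 2320 and 2575 bases against 1325 and 1823, a log2 ratio of -0.64. Kmt2e, a chromatin reader of the same family, had 2428 and 2582 against 2116 and 1824 (-0.35). All 5 of these domains were below both controls in both knockouts, from -0.12 at Nsd1 to -0.64 at Kmt2c, as were 91.5% of all domains. Arid1b was the only SWI/SNF subunit with a domain, and no other remodeller (0 of 20) or DNA methyltransferase or TET gene (0 of 10) had one.

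Cell cycle genes held 3 of 32, at Cdk6 (-0.84), Cdk13 (-0.76), a kinase of RNA polymerase II elongation, and E2f3 (-0.19). Immediate early genes held 2 of 26, at Jun (-0.75) and Klf10 (-0.52). At Jun the covered bases were 2228 and 2549 against 1363 and 1472, and at Klf10 1801 and 2828 against 1636 and 1582, where Control 1 was nearer to the knockouts than to Control 2. Heat shock genes (0 of 25) and p53 targets (0 of 17) held none, and among splicing factors Hnrnpl held 1 of 46 (-0.81).

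Wnt pathway genes held 3 of 38, all of them Frizzled receptors, short genes for the Wnt ligand's cell surface receptor. Fzd7 had 2475 and 2500 bases against 931 and 1039 (-1.34), Fzd8 2434 and 2587 against 1559 and 1814 (-0.57), and Fzd2 1964 and 1341 against 1327 and 1652 (-0.15). The groups were apart at Fzd7 and Fzd8 and overlapped at Fzd2. Patterning transcription factors held 6 of 81: Sox2 (-1.57), Pbx3 (-1.09), a Hox cofactor, Barx2 (-0.93), a homeobox factor, Foxo1 (-0.47), Zic5 (-0.34) and Zic2 (-0.32). Hox genes held 0 of 11. Sox2 was also the domain of the pluripotency list (1 of 17).

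The germline lists were too short to show whether their share of domains differed from the 0.708% of all genes with a kept region. Meiotic entry genes (0 of 21), synaptonemal and cohesin genes (0 of 14), genome defence genes (0 of 13) and oocyte genes (0 of 10) held no domain. Among meiotic recombination genes 1 of 31 did, Zcwpw1, a reader of the histone marks that PRDM9 deposits. It shares its domain with Mepce, which caps 7SK RNA, and 2697 and 2666 bases were covered against 1693 and 1222 (-0.88). The region at Meiosin (Bhmg1) and Fbxo46 fell just under the minimum at 2495 bp, with 2081 and 2182 bases in the controls and 1144 and 1440 in the knockouts (-0.72). That at Stra8 was 1669 bp long, with 1094, 524, 693 and 724 bases, and its groups overlapped. Of the markers of supporting cells, Foxl2, a factor of granulosa cells, had a domain (1 of 10), with 2675 and 2060 bases against 1431 and 1232 (-0.83). Foxl2 is also 1 of the 5 supporting cell markers summed above, so that sum is not separate from its values, and the part of supporting cells in them was not tested. Stroma (0 of 5) and endothelium and blood markers (0 of 5) had none. Ribosomal protein genes (0 of 83) and zinc finger genes with a Zfp symbol (0 of 312) were large groups without a domain.

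The regions nearest the length minimum were named for their length and are too few to show whether values changed there. Just inside it lay Sp3, a GC box factor (2500 bp, log2 ratio -0.30), and Chat with Slc18a3 (2501 bp, -2.20). Just outside lay the Meiosin region (2495 bp, -0.72), Tle1, a Groucho corepressor (2493 bp, -0.33), and Kmt2a, an H3K4 methyltransferase (2492 bp, -0.52).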

How the data were processed

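The authors deposited, for each of the 4 libraries, a list of broad peaks on mm10 with a score, a fold enrichment, −log10 p and −log10 q per peak. Per the submitters' processing notes, the 50 bp reads went through MACS2 2.2.7.1, Picard 2.25.2, SAMtools 1.10, Bowtie2 2.4.2 and Trim Galore 0.6.5, with no role or order stated. No source used here gives peak thresholds, duplicate handling or any shift of read ends. The lowest deposited −log10 q was 1.00 to 1.02 per list. The deposited fold enrichment, a ratio, and −log10 q only ranked or filtered peaks within a list, and the deposited score was not used.

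Peaks were merged, assigned to gene ends and counted with Python 3.11.15, numpy 2.4.6 and pandas 2.3.3, and the code was tested on simulated data. Covered bases are the bases of a region inside a library's peaks. The log2 ratio compares the mean of the Snf5 CKO libraries with that of the controls. A call needs both libraries of a group beyond both of the other. Gene positions, strands and promoter sequences are from RefSeq tables of GRCm38.p6. The members, the 25 gene lists and the tests were chosen with earlier results of these data known.

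Genes named are those at the 10 longest domains, at the 8 lowest and 8 highest ratios, at the 5 largest gains and 3 largest falls in peak number, at the 3 regions on either side of the length minimum, at the 5 highest fold enrichments, the list members, Smarcb1, Stra8 and Meiosin. Others, such as those in the maps and the printed promoters of Traf3 and Tpbg, were chosen after their values were seen. 1 gene that the rule covers is not reported here. The alternatives covered the q limit, list length, length minimum, its measure, merging, window, starts only and leaving out each library; 3 others were added after seeing the data.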

Additional observations from a re-analysis of the deposited data

How the results depend on the processing

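With a minimum of 2000 bp there were 398 domains, 350 with fewer covered bases in both Snf5 CKO libraries, 8 with more, 36 with more peaks and a median log2 ratio of -0.50. The shares with fewer bases and with more peaks were 87.9% and 9.05%, against 77.0% and 0.651% of shorter regions. With a minimum of 4000 bp there were 0 domains. With length counted only over bases covered in both groups there were 2 domains, 1 with fewer bases, 0 with more bases and 0 with more peaks. Their median log2 ratio was -0.10, and the difference from shorter regions turned to 0.30, from -0.17. That alternative requires knockout cover, so it removes narrowed regions by construction. Leaving out each library in turn gave 41 to 69 domains, 39 to 65 with fewer bases, 0 to 2 with more, 12 to 20 with more peaks, and medians of -0.58 to -0.51. In these settings 81.4% to 89.1% of shorter regions had fewer bases. The lowest number of domains, 41, came without Control 1, and more peaks were counted at 19 domains without Control 2, 17 without Snf5 CKO 1 and 20 without Snf5 CKO 2. With 1 library left in a group, a count of more peaks needs fewer libraries to agree, by construction. Chosen after seeing the data, members picked on Control 1 alone gave -0.50 and on Snf5 CKO 1 alone -0.25, against -0.39 and -0.44 over all kept regions at gene ends, so the excess of the domains is not seen when a knockout library picks them. The other alternatives (a −log10 q of at least 3, lists of equal length, 100 bp of overlap, a 500 bp window, starts only, no domains with predicted genes alone) kept direction and stayed within 1.5 times the counts. Among the domains removed by the q limit were those of Chat with Slc18a3, Adrb1 and Egr4, where a knockout library had no peak left.

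The replicate block, a comparison of same-numbered libraries, gave 66 domains with fewer bases, 11 with more peaks and a median log2 ratio of -0.57. The numbers share no stated origin, and deviations of same-numbered libraries correlated at -0.08 over the 71 domains, so they were not taken as pairs. Depth is unknown, so a base without a peak may be open below detection.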

Other observations

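Broad regions with a peak in all 4 libraries that lay outside the domains were few. On the X chromosome 5 lay at gene ends, and 4 of them, at Sox3, Usp9x, Cited1 and Zxdb, had fewer covered bases in both Snf5 CKO libraries than in both controls. The share over kept regions at gene ends on the autosomes was 77.4%. Sox3, a transcription factor related to Sox2, had 2410 and 2337 bases in the controls against 1626 and 812 (log2 ratio -0.96). The groups overlapped at Tbl1x.

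On the autosomes 18 regions of 2500 bp or more lay away from gene ends, with a median log2 ratio of -0.17. Of these, 10 (55.6%) had fewer bases in both knockouts, against 39.1% of all kept regions away from gene ends. The region in Smad4, the common mediator of TGF-beta and BMP signalling, had 2980 and 2048 bases against 317 and 525 (-2.58). In contrast, several were nearly the same width in every library. Regions prone to mapping artefacts were not filtered out here, so such equal widths need not reflect open chromatin. One in Myo3a, an unconventional myosin, had 2931, 2934, 2931 and 2932 bases, and one on chromosome 1 touching no protein-coding gene (chr1:24611565-24616154) had 4590, 4586, 4587 and 4583. Regions inside Dnmt3a (2599 and 2406 against 2132 and 2015) and Cpeb1, an oocyte regulator of mRNA polyadenylation (2420 and 2516 against 1982 and 2119), were broad although no domain lay at a gene end of either.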
